A study of Mus musculus with 8 samples.

Results

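The homing receptors of tissues and T helper (Th) types were examined in mouse regulatory T (Treg) cells with and without BRG1, the ATPase of the BAF chromatin remodelling complex, which the gene Smarca4 (here Brg1) encodes. The 8 genes, Cxcr3, Ccr4, Ccr6, Ccr8, Ccr10, Cxcr4, Cxcr5 and Gpr15, were taken by name among the 53465 gene identifiers measured, and all 8 had reads in all 8 libraries. Messenger RNA of sorted Treg cells from spleen and lymph nodes of C57BL/6 mice aged 3 to 4 weeks was sequenced, with 1 library per condition. Conditions are compared within the 6 total Treg libraries and, apart from them, within the 2 libraries of activated Treg (aTreg) cells, which came from another experiment.

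All 8 genotypes carry R26 CAG-FlpoER, a tamoxifen-inducible Flp recombinase, and the mice carry Foxp3 YFP-Cre, a Cre recombinase joined to YFP and driven by the endogenous Foxp3 gene on the X chromosome. Cre deletes the floxed Brg1 allele (F) in cells that use Foxp3, and the allele ΔR, made on a mixed background and then backcrossed, is a reversible gene trap that reports itself with GFP. The WT library came from littermate controls with the label genotype Brg F/+ Foxp3 YFP-Cre/+, so that the WT cells are heterozygous where Cre is active. In healthy mosaic females, Brg F/ΔR, the genotype label is Foxp3+/+ for the Brg1-sufficient cells and Foxp3 YFP-Cre for the Brg1-deleted cells, because random X inactivation leaves Cre active in part of the cells. The rKO1 mice, Brg F/deltaR Foxp3 YFP-Cre/YFP-Cre, are the severely inflamed class of knockout mice and gave an untreated Brg1-deleted library. From rKO1 mice on day 7 after a single low dose of tamoxifen (TAM) came a GFP+ Brg1-deleted library and a Brg1-reexpressed library of cells that had lost GFP, the latter with the label genotype Brg F/+. The aTreg cells, gated as CD44hi among other markers, were taken on day 7 as well. For the library titled Brg1-deleted aTreg the column header reads WT and the stated genotype F/F, and both aTreg libraries are therefore called here by their titles. The Treg gate stated in the methods requires YFP, which the Brg1-sufficient mosaic cells lack, and how many mice were pooled is not given in the sources used here.

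Chemokine receptors are G protein-coupled receptors that steer lymphocytes along gradients of small secreted proteins, the chemokines. Treg cells take up parts of the receptor repertoire of the helper cells that they restrain, and which receptors they carry is known to set the tissue they enter. CXCR3 is the receptor of Th1 cells, CCR4 and CCR8 are typical of Th2 and skin-homing cells, and CCR6 belongs to Th17 cells. CXCR5 leads cells into B cell follicles, CCR10 into skin and mucosa, GPR15 into the colon, and CXCR4 holds cells in bone marrow and lymphoid stroma.

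Levels are given as FPKM (fragments per kilobase of exon, relative to library size), rescaled between libraries by the trimmed mean of M-values (TMM), and are comparable between genes within an experiment. The recovered reads numbered 16303704 to 24026695 per library, so that 1 read equals 0.0412 to 0.0603 CPM (reads of a gene scaled to library size, without its length). A receptor counts as tested where 1 or both of the libraries compared held 5 CPM or more, and as called with a difference of at least 2-fold. A gene that reaches 5 CPM in only 1 of the 2 libraries can be called higher in that library but never lower. Because each condition has 1 library, no difference could be set against replicates, and no p-value is given. The 95% intervals are exact binomial ones on read numbers, for counting error alone. In bulk RNA, fewer cells that express a gene and less RNA per cell cannot be told apart.

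Smarca4 itself checks the labels. Its level was 13.6 FPKM in the WT library, 11.9 in the mosaic Brg1-sufficient library and 7.29 in its Brg1-deleted counterpart, 6.80 in untreated rKO1 cells, 5.57 in the rKO1 Brg1-deleted and 8.97 in the Brg1-reexpressed library after TAM. It was higher with BRG1 in the mosaic pair (1.64-fold, 1.52 to 1.77) and in the rKO1 pair after TAM (1.61-fold, 1.46 to 1.78), a gene-level value that takes in all exons. In the aTreg pair the level was 11 FPKM in the library labelled Brg1-deleted and 9.17 in the library labelled Brg1-reexpressed, a 1.20-fold difference (1.11 to 1.3) against the labels, so that directions in that pair are those of the labels. Of the 6 Treg and CD4 T cell markers (Foxp3, Il2ra, Ikzf2, Ctla4, Cd3e and Cd4), all had more than 3 reads in every library, and their summed level ranged from 1302 to 2299 CPM over the 6 total Treg libraries. Single markers varied more than the sum, with Foxp3 from 73.1 CPM in WT to 536 CPM in mosaic Brg1-sufficient cells and Cd3e from 103 CPM in Brg1-deleted rKO1 cells after TAM to 674 CPM in mosaic Brg1-sufficient cells.

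The promoter table of RefSeq (build GRCm38.p6) held windows for 6 of the 8 genes, and Ccr10 and Cxcr5 had no entry. Shown here is the part of each window that lies in no annotated exon, 5′ to 3′ on the strand of the gene, for the 3 receptors that were higher with BRG1 in both total Treg pairs and are in the table (Cxcr3, Ccr4 and Ccr8) and for Ccr6, which differed in opposite directions in these pairs. Capitals mark matches to short motifs, of which the stretches of Cxcr3 and Ccr8 hold none.
Cxcr3 (chrX:101734270-101734397, minus strand): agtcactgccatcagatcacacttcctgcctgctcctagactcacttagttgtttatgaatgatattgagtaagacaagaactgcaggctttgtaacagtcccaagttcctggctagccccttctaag
Ccr4 (chr9:114496563-114496794, minus strand): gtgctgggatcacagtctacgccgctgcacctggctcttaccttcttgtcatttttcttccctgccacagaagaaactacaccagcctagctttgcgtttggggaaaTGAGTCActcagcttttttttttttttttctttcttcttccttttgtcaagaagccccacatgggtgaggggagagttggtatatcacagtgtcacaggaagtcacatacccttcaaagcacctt
Ccr8 (chr9:120091883-120092113, plus strand): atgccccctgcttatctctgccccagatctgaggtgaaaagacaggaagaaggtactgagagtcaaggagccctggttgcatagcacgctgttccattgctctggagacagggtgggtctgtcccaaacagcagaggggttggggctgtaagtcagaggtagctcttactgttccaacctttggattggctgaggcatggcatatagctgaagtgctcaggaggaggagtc
Ccr6 (chr17:8235793-8236042, plus strand): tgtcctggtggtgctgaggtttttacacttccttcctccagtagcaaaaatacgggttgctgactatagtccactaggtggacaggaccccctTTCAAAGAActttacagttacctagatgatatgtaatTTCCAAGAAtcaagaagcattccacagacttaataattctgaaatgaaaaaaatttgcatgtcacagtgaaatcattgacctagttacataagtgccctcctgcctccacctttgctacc
The motifs, searched on both strands of windows of 300 bases (250 before the start and 50 after it), were T-box GGTGTGA, STAT TTCNNNGAA, AP-1 TGANTCA, FOXO GTAAACA and RUNX TGTGGTT. The Ccr4 window held 1 AP-1 match, 143 bases upstream of the start, a motif present in 7.79% of 32544 windows. Ccr6 has 2 windows, and the one shown held STAT matches 157 and 120 bases upstream of its start, a motif present in 8.33% of windows. RUNX letters (5.29% of windows) matched in the windows of Cxcr3, 10 bases downstream of the start and outside the stretch shown, and Gpr15, and the Gpr15 window also held an AP-1 match. T-box (3.95%) and FOXO (3.66%) letters were in none of the windows of the 6 genes, and the Ccr8 and Cxcr4 windows matched no motif. A match describes the letters only.

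Cxcr3 spanned the widest range of levels together with Ccr10. Cxcr3 (ENSMUSG00000050232, on build GRCm38, as for the genes that follow, chromosome X, 101731535 to 101734269, minus strand), the receptor for the interferon-induced chemokines CXCL9, CXCL10 and CXCL11, stood at 30.9 FPKM in WT cells, 43.9 in mosaic Brg1-sufficient cells and 2.35 in mosaic Brg1-deleted cells. In the rKO1 libraries it stood at 88.4 FPKM untreated, 57.8 in Brg1-deleted and 304 in Brg1-reexpressed cells after TAM. The Brg1-reexpressed library was thus the highest and the mosaic Brg1-deleted library the lowest, 129-fold apart (106 to 159), and every neighbour in the order of the 6 libraries differed beyond counting error. Both Brg1-deleted rKO1 libraries lay above WT and mosaic Brg1-sufficient cells. In aTreg cells Cxcr3 was at 112 FPKM in the library labelled Brg1-deleted and 139 in the library labelled Brg1-reexpressed.

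Ccr10 showed a similarly wide range at a lower level. Ccr10 (ENSMUSG00000044052, chromosome 11, 101172997 to 101175443, minus strand), the receptor for the epithelial chemokines CCL27 and CCL28, was at 8.11 FPKM in WT, 9.96 in mosaic Brg1-sufficient and 0.239 in mosaic Brg1-deleted cells, the last with 10 reads. It was at 1.48 FPKM in untreated rKO1, 4.55 in Brg1-deleted and 30.7 in Brg1-reexpressed cells after TAM. Unlike Cxcr3, Ccr10 was lower in both Brg1-deleted rKO1 libraries than in WT cells, and the order of all 6 libraries held beyond counting error, with 129-fold (69.7 to 269) between the ends. In aTreg cells the order was the reverse of the labels, with 3.18 FPKM labelled Brg1-deleted and 1.91 labelled Brg1-reexpressed.

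The Th2-type receptors varied less. Ccr4 (ENSMUSG00000047898, chromosome 9, 114490316 to 114504916, minus strand), the receptor for CCL17 and CCL22, was at 6.14 FPKM in WT, 22.7 in mosaic Brg1-sufficient, 4.02 in mosaic Brg1-deleted, 6.49 in untreated rKO1, 5.17 in Brg1-deleted and 15.9 in Brg1-reexpressed cells after TAM. Untreated rKO1 and WT cells did not differ beyond counting error (1.06-fold, 0.908 to 1.23), whereas the other neighbours did. Only the mosaic Brg1-sufficient and the Brg1-reexpressed libraries stood clear of the other 4. The aTreg libraries held 7.35 FPKM labelled Brg1-deleted and 10.6 labelled Brg1-reexpressed.

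Ccr8 was the most abundant of the 8 receptors per unit length in the WT and both mosaic libraries. Ccr8 (ENSMUSG00000042262, chromosome 9, 120092114 to 120094906, plus strand), the receptor for CCL1 and, in mice, CCL8, marks strongly activated tissue Treg cells. It was at 34.3 FPKM in WT, 78.7 in mosaic Brg1-sufficient, 38.9 in mosaic Brg1-deleted, 68.4 in untreated rKO1, 55.9 in Brg1-deleted and 143 in Brg1-reexpressed cells after TAM. The ends of this order, the Brg1-reexpressed and the WT library, differed 4.17-fold (3.83 to 4.54), so that Ccr8 kept a high level also where BRG1 was deleted. In aTreg cells it was at 64.4 FPKM labelled Brg1-deleted and 116 labelled Brg1-reexpressed.

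Ccr6 had the narrowest range of the 8 receptors over the total Treg libraries. Ccr6 (ENSMUSG00000040899, chromosome 17, 8236043 to 8257141, plus strand), the receptor for CCL20, was at 27.3 FPKM in WT, 44.5 in mosaic Brg1-sufficient, 16.3 in mosaic Brg1-deleted, 40.3 in untreated rKO1, 35.5 in Brg1-deleted and 22.8 in Brg1-reexpressed cells after TAM. Here the Brg1-reexpressed library was the second lowest, where Cxcr3, Ccr8 and Ccr10 had their highest level. The ends differed 2.73-fold (2.51 to 2.97), and all neighbours differed beyond counting error. The same order by label appeared in aTreg cells, with 49.8 FPKM labelled Brg1-deleted and 28.8 labelled Brg1-reexpressed.

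Cxcr5 and Gpr15 were lower in all 3 Brg1-deleted total Treg libraries than in WT cells. Cxcr5 (ENSMUSG00000047880, chromosome 9, 44511787 to 44561877, minus strand), the receptor for the follicular chemokine CXCL13, was at 1.86 FPKM in WT, 4.24 in mosaic Brg1-sufficient and 0.383 in mosaic Brg1-deleted cells. In the rKO1 libraries it was at 0.314 untreated, 0.622 in Brg1-deleted and 0.412 FPKM in Brg1-reexpressed cells. The 4 lowest libraries, with 20 to 38 reads each, formed a row of neighbours that did not differ beyond counting error, and the Brg1-reexpressed library was among them. In aTreg cells Cxcr5 was at 9.28 FPKM labelled Brg1-deleted and 6.89 labelled Brg1-reexpressed. Gpr15 (ENSMUSG00000047293, chromosome 16, 58717433 to 58719070, minus strand), a receptor that guides T cells to the large intestine, was at 5.80 FPKM in WT, 5.05 in mosaic Brg1-sufficient and 0.128 in mosaic Brg1-deleted cells, the last with 4 reads. It was at 1.09 FPKM in untreated rKO1, 1.48 in Brg1-deleted and 2.78 in Brg1-reexpressed cells after TAM. WT and mosaic Brg1-sufficient cells did not differ beyond counting error, nor did the Brg1-deleted rKO1 cells with and without TAM, and the Brg1-reexpressed library lay between these pairs. The aTreg libraries held 6.14 FPKM labelled Brg1-deleted and 3.16 labelled Brg1-reexpressed. Of the 1638 exon bases of Gpr15, 204 also belong to another annotated gene, as do 110 of the 3332 of Cxcr5, and reads there may be shared.

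Cxcr4 was highest in the 2 total Treg libraries from TAM-treated mice. Cxcr4 (ENSMUSG00000045382, chromosome 1, 128588199 to 128592293, minus strand), the receptor for CXCL12, was at 2.57 FPKM in WT, 2.17 in mosaic Brg1-sufficient, 2.41 in mosaic Brg1-deleted and 1.65 in untreated rKO1 cells, but at 5.16 in Brg1-deleted and 4.42 in Brg1-reexpressed cells after TAM. The 2 TAM libraries did not differ from each other beyond counting error, and among the 4 others no neighbours did. In aTreg cells it was at 4.60 FPKM labelled Brg1-deleted and 5.20 labelled Brg1-reexpressed, which did not differ beyond counting error.

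**Figure D1:**
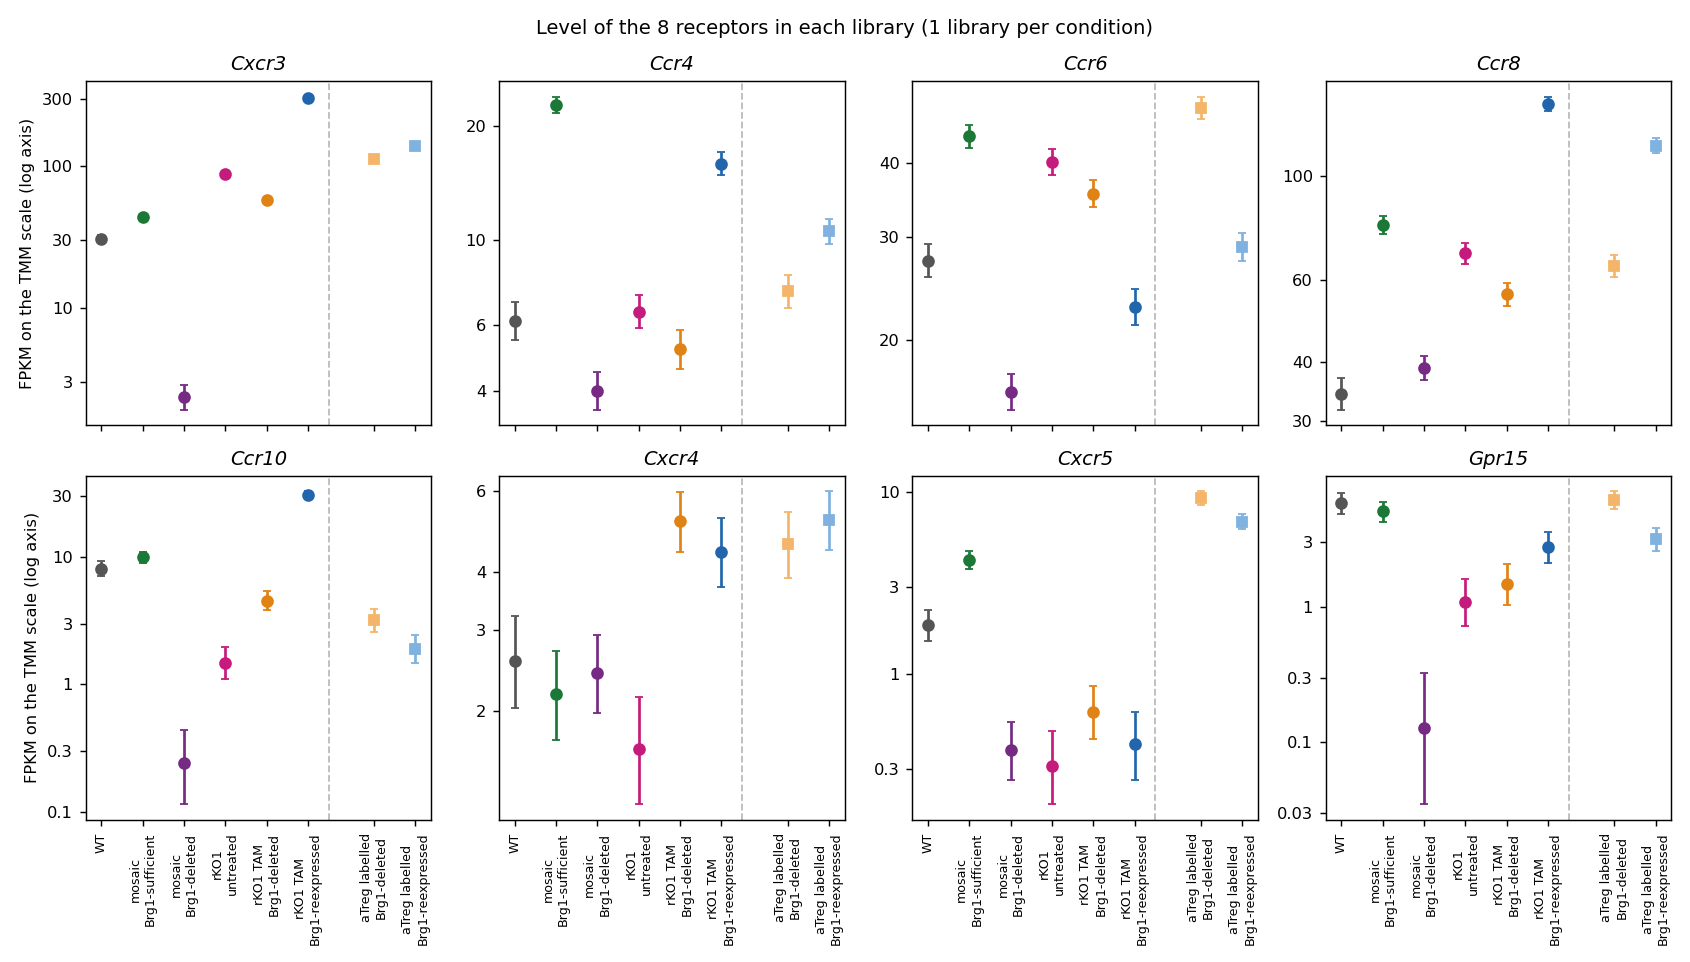
Level of each receptor (FPKM on the TMM scale, log axis, a separate range per panel) in the 6 total Treg libraries (circles) and, right of the dashed line, the 2 aTreg libraries (squares), 1 point per library with the exact 95% Poisson interval of its reads. Cxcr3 runs from 2.35 to 304 and Ccr10 from 0.239 to 30.7 over the total Treg libraries, while Ccr6 stays between 16.3 and 44.5.

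The sum of the 8 receptors and its makeup differed between the libraries. The 8 levels summed to 117 FPKM in WT, 211 in mosaic Brg1-sufficient, 64.8 in mosaic Brg1-deleted, 208 in untreated rKO1, 166 in Brg1-deleted and 524 in Brg1-reexpressed cells. Cxcr3 made up 26.4% of the sum in WT, 20.8% in mosaic Brg1-sufficient and 3.64% in mosaic Brg1-deleted cells, but 42.5%, 34.8% and 58.1% in the 3 rKO1 libraries in the order above. Ccr8 led the sum in WT and mosaic cells, with 60.1% in mosaic Brg1-deleted cells, and Cxcr3 led it in every rKO1 library. Ccr6 fell from 21.4% of the sum in the Brg1-deleted to 4.34% in the Brg1-reexpressed library after TAM. In aTreg cells the sums were 257 FPKM labelled Brg1-deleted and 312 labelled Brg1-reexpressed, with Cxcr3 at 43.6% and 44.6%.

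**Figure D2:**
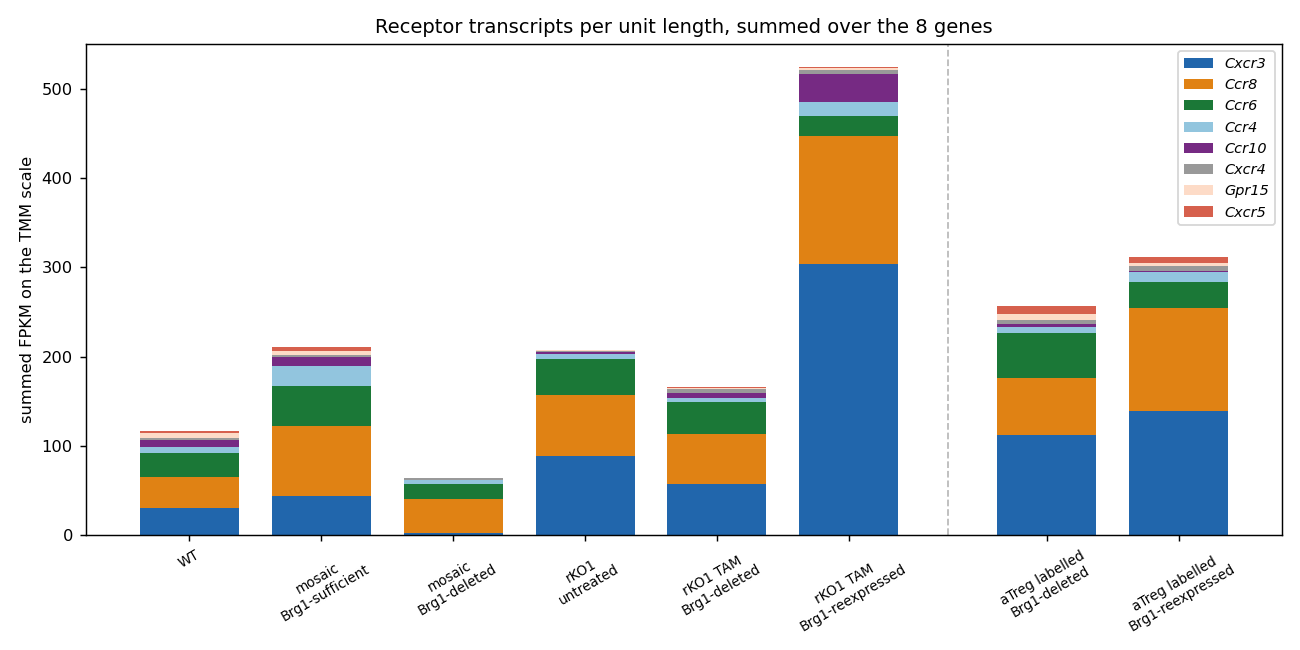
Sum of the 8 receptor levels (FPKM on the TMM scale, bars from 0) in each library, split by gene, with the aTreg experiment right of the dashed line. The Brg1-reexpressed library reaches 524, most of it Cxcr3 and Ccr8, and the mosaic Brg1-deleted library 64.8, most of it Ccr8 and Ccr6.

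In healthy mosaic females, cells with and without BRG1 come from the same animals, so that they are compared without inflammation. The cells also differ in the Foxp3 allele they use, in Cre and in YFP, which the stated gate requires. With 1 library each, these cannot be told apart from BRG1. Of the 8 receptors 7 were tested, and 7 were at least 2-fold higher in Brg1-sufficient cells, where 4.03% of 10076 genes were that much higher and 2.07% that much lower. Cxcr3, Ccr10, Cxcr5 and Gpr15 reached 5 CPM only in the Brg1-sufficient library, so the filter left them no way to be called lower. Ccr4, Ccr6 and Ccr8 reached it in both libraries. Ccr10 was 41.8-fold higher (22.4 to 87.8), Gpr15 39.6-fold (15.1 to 147) and Cxcr3 18.6-fold (15.2 to 23.1). Cxcr3, Ccr8 and Ccr10 are among the activation and effector genes that the study picked on these libraries, so their direction here and in the rKO1 pair is no independent evidence. Smaller differences were those of Cxcr5 with 11.1-fold (7.63 to 16.6), Ccr4 with 5.66-fold (5 to 6.42), Ccr6 with 2.73-fold (2.51 to 2.97) and Ccr8 with 2.02-fold (1.88 to 2.18). The Ccr8 difference sits at the threshold and falls to 1.84-fold when libraries are scaled by total reads alone. Cxcr4, under 5 CPM in both libraries, had a ratio of 0.898 (0.666 to 1.21). The median log2 difference of the 7 tested receptors was 3.46, against 0.03 over all genes tested. That median includes the receptors that passed the filter only through the Brg1-sufficient library.

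As a yardstick without replicates, the spread of genes of like expression was taken from pairs of libraries with the same state of Brg1 (WT against mosaic Brg1-sufficient, and Brg1-deleted rKO1 with against without TAM), each of which shares libraries with comparisons here. Within the wider of these pairs, 95% of the 500 genes nearest to a receptor lay within 1.06 to 2.04 log2 units for the mosaic comparison. Beyond that range lay 6 of the 8 receptors, with Ccr8 (1.01 against 1.06) and Cxcr4 within it. Foxp3, the lineage factor of Treg cells, was 2.19-fold higher in the Brg1-sufficient than in the Brg1-deleted mosaic cells, and its part in these differences was not tested. The B cell markers, cells that also use Ccr6, Cxcr4 and Cxcr5, summed to 47.7 CPM in Brg1-sufficient and 55.8 CPM in Brg1-deleted mosaic cells, with none of 7 at 0 in either. Single markers went both ways, with Cd79b 1.33-fold higher (1.18 to 1.49) and Ms4a1 2.69-fold lower, under 5 CPM, in the Brg1-sufficient cells, and their part in the Cxcr5, Ccr6 and Cxcr4 values was not tested.

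In inflamed rKO1 mice after TAM, the Brg1-reexpressed cells were compared with the Brg1-deleted cells of the same treatment. Of 6 tested receptors 4 were at least 2-fold higher and 0 lower, with 7.14% of 10320 genes higher and 5.64% lower by the same rule. Ccr10 was 6.75-fold higher (5.65 to 8.10), Cxcr3 5.27-fold (5.01 to 5.54), Ccr4 3.08-fold (2.70 to 3.54) and Ccr8 2.56-fold (2.39 to 2.74), and all 4 lay beyond the wider library range. Ccr6 was 1.56-fold lower (1.43 to 1.71), which is under the threshold and within the wider range of 1.14 log2 units, though beyond the 0.62 of the rKO1 pair alone. Cxcr4 had a ratio of 0.857 (0.679 to 1.08). Gpr15 and Cxcr5 stayed under 5 CPM, with ratios of 1.88 (1.22 to 2.93) and 0.662 (0.377 to 1.14). The median log2 difference of the 6 tested receptors was 1.49, against 0.06 over all genes tested. Scaling by total reads alone moved the median of all genes to -0.29, and the 4 calls held.

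In aTreg cells, which were gated as activated in both libraries, none of the 8 tested receptors reached 2-fold. Whether the libraries were alike in activation was not tested. Of 10035 genes, 4.40% were that much higher and 2.03% that much lower in the library labelled Brg1-reexpressed. With shares this low, 0 of 8 does not set the receptors apart from all genes. Higher in the library labelled Brg1-reexpressed were Ccr8 (1.81-fold, 1.69 to 1.93), Ccr4 (1.44-fold, 1.27 to 1.64) and Cxcr3 (1.25-fold, 1.19 to 1.3), beyond counting error but under 2-fold. Cxcr4 had a ratio of 1.13 (0.906 to 1.41). Higher in the library labelled Brg1-deleted, likewise under 2-fold, were Gpr15 (1.94-fold, 1.51 to 2.50), Ccr6 (1.73-fold, 1.61 to 1.85), Ccr10 (1.66-fold, 1.20 to 2.31) and Cxcr5 (1.35-fold, 1.19 to 1.53). The median log2 difference was -0.13, against -0.06 over all genes tested. None of the 8 lay beyond the wider range, which was borrowed from the total Treg experiment, and 2 (Ccr6 and Ccr8) lay beyond that of the rKO1 pair.

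**Figure D3:**
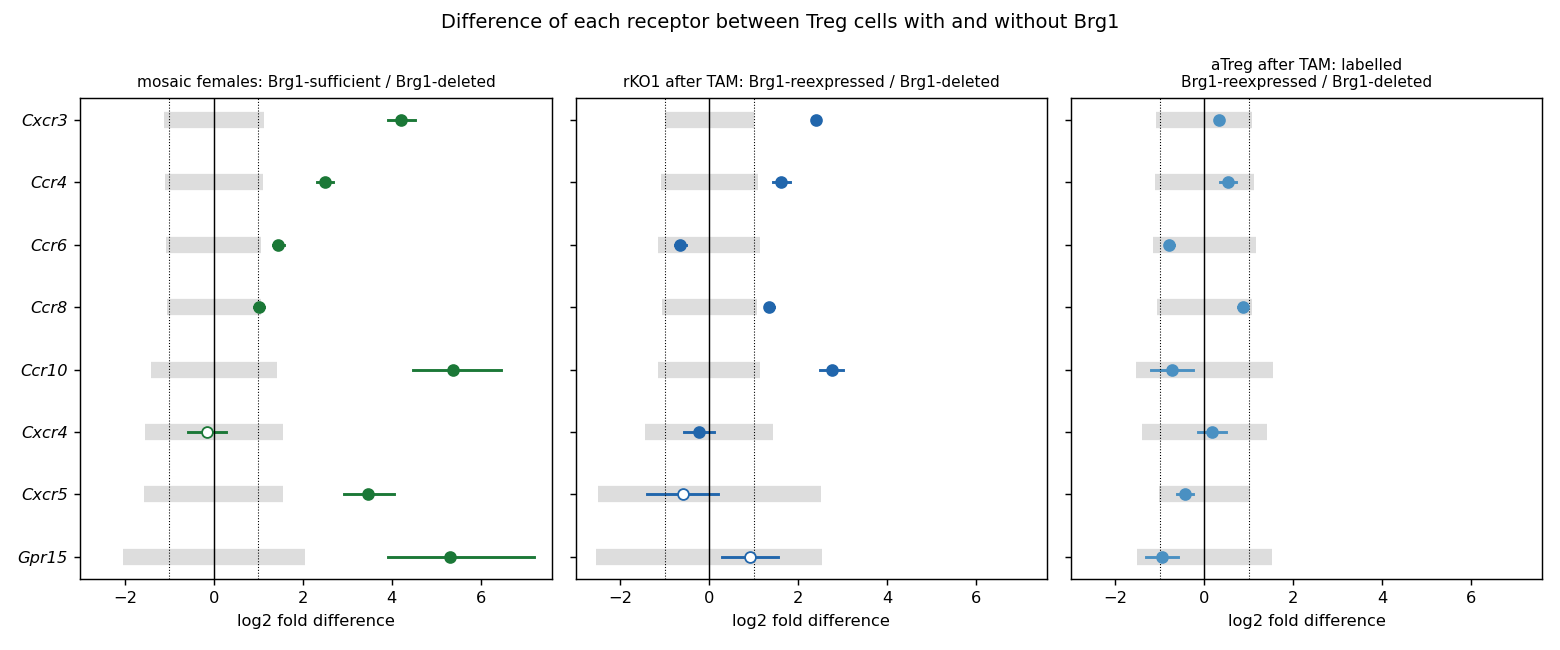
Log2 fold difference of each receptor (points) with the 95% counting interval (lines) in the mosaic, rKO1 and aTreg comparisons, open where both libraries were under 5 CPM. Grey bars give the wider library-to-library range, dotted lines the 2-fold threshold. In the mosaic panel 6 receptors lie right of the grey bars, in the rKO1 panel 4, and in the aTreg panel 0.

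The other pairs of total Treg libraries place these differences against control cells. They reuse the WT library 3 times and the untreated rKO1 library 3 times, so their values are given side by side without an overlap. Between the 2 libraries with BRG1 in healthy mice, mosaic Brg1-sufficient against WT, 3 of 7 tested receptors were higher and 0 lower, with 5.14% of genes higher and 4.18% lower. Those were Ccr4 (3.70-fold, 3.28 to 4.19), Ccr8 (2.29-fold, 2.10 to 2.51) and Cxcr5 (2.27-fold, 1.81 to 2.87), while Cxcr3 (1.42-fold), Ccr6 (1.63-fold), Ccr10 (1.23-fold) and Gpr15 (0.872) stayed under 2-fold. Beside these, Foxp3 stood at 536 CPM in the mosaic and 73.1 CPM in the WT library and the myeloid gene Lyz2 at 113 and 377 CPM, and their part in the receptor values was not tested.

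Inflamed untreated rKO1 cells against WT split the receptors. Of 7 tested, 1 was at least 2-fold higher and 3 lower, with 8.62% of genes higher and 7.12% lower. The 3 called lower (Cxcr5, Ccr10 and Gpr15) reached 5 CPM only in WT, so by the filter they could not be called higher. Cxcr3 was 2.86-fold higher (2.65 to 3.08), and Ccr8 (interval 1.82 to 2.19) fell just short of the 2-fold threshold and passed it with 2.45-fold under scaling by total reads. Cxcr5 was 5.94-fold lower (3.66 to 10.1), Ccr10 5.46-fold (4.00 to 7.59) and Gpr15 5.30-fold (3.47 to 8.36). Ccr4 (1.06-fold) and Ccr6 (1.48-fold) were called in neither direction. Scaling by total reads moved the median log2 difference of all genes from -0.05 to 0.25 in this comparison.

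Between the Brg1-deleted cells of inflamed and of healthy mice, the untreated rKO1 library was at least 2-fold higher than the mosaic Brg1-deleted library for 2 of 4 tested receptors and lower for 0, with 8.17% of genes higher and 6.96% lower. Cxcr3 was 37.6-fold higher (30.7 to 46.4) and Ccr6 2.47-fold (2.27 to 2.70), with Ccr8 at 1.76-fold and Ccr4 at 1.61-fold. Cxcr3 reached 5 CPM only in the rKO1 library, so by the filter it could not be called lower. Ccr10 (6.22-fold, 3.11 to 13.8) and Gpr15 (8.57-fold, 2.99 to 33.7) were higher too but under 5 CPM in both libraries. Cxcr3 was thus low in Brg1-deleted cells of healthy females and high in Brg1-deleted cells of rKO1 mice. Inflammation, the X-linked Cre state of the other cells and the mouse cannot be told apart in this pair.

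Brg1-deleted rKO1 cells of mice with and without TAM differed in 2 receptors. The libraries are of different mice, and those given TAM also held Brg1-reexpressed cells, so that TAM, these cells and the mice cannot be told apart. Of 6 tested in Brg1-deleted rKO1 cells with against without TAM, 2 were higher and 0 lower, with 2.15% of genes higher and 2.26% lower, and these were Cxcr4 (3.13-fold, 2.31 to 4.30) and Ccr10 (3.07-fold, 2.20 to 4.33). Both reached 5 CPM only in the library with TAM, so by the filter they could not be called lower. Cxcr3 was 1.53-fold lower (1.44 to 1.62) and Ccr8 1.22-fold lower (1.13 to 1.32). The Brg1-reexpressed cells also differed from WT cells, in both directions. Against WT, 4 of 8 tested receptors were higher and 2 lower, with 9.72% of genes higher and 7.39% lower. The 2 called lower reached 5 CPM only in WT, so by the filter they could not be called higher. Cxcr3 was 9.84-fold (9.18 to 10.6), Ccr8 4.17-fold (3.83 to 4.54), Ccr10 3.79-fold (3.28 to 4.40) and Ccr4 2.60-fold (2.28 to 2.96) above WT, whereas Cxcr5 was 4.52-fold (2.86 to 7.45) and Gpr15 2.09-fold (1.52 to 2.89) below it. Ccr6 (0.834) and Cxcr4 (1.72-fold) were within 2-fold.

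The receptors differed in which other genes tracked them over the 6 total Treg libraries. Among 7531 genes of at least 20 CPM in any of them, the Pearson correlation of log2 levels, given without p since the points share libraries, was highest with Cxcr3 for Batf (0.9997), an AP-1 family factor of effector T cells, then Slc22a15 and Unc119. For Ccr10 it was highest with the inflammatory receptor Ccr2 (0.9943), then Rwdd1 and Ccs. Gpr15 was closest to Apeh (0.9949) and Mrps26, with Nrp1, a surface marker of thymus-derived Treg cells, next (0.9754). For Ccr4 the closest genes were Rala (0.9920), 1700037H04Rik and Mrs2, for Ccr8 Snx14 (0.9926), Ddx28 and Plpp6, and for Cxcr4 Dusp4 (0.9857), Rnf4 and Cdk5rap1. For Cxcr5 they were Ckb (0.9860), Iscu and Ppp1r14b, and for Ccr6, the loosest, Chd9 (0.9476), Cacfd1 and Pla2g12a. With 6 points and 7531 genes, high values of this kind are easily reached. Among the 8 receptors themselves, Ccr10 and Gpr15 (0.88), Cxcr3 and Ccr10 (0.82) and Cxcr3 and Ccr8 (0.77) were most alike, and Ccr6 and Cxcr4 (-0.21) least.

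Ligands of the receptors were read in the same libraries. Of all genes, 4.03% were called higher and 2.07% lower in the mosaic pair, and 7.14% and 5.64% in the rKO1 pair. In the aTreg pair these shares were 4.40% and 2.03%, and they apply to the other lists below as well. Of 13 ligand genes 12 were matched (Gpr15l was not), and 4 were tested in the mosaic pair, of which 2 were higher in Brg1-sufficient cells and 0 lower. These were Ccl1, the CCR8 ligand that T cells themselves make (207 against 2 reads, 119-fold, 32.5 to 987), and Cxcl10, a CXCR3 ligand (2.44-fold, 2.15 to 2.78). In the rKO1 pair all 4 tested ligands were lower in Brg1-reexpressed cells, in which their receptors Cxcr3 and Ccr8 were higher. Ccl1 was 28.4-fold lower, with 25 against 778 reads, Cxcl9 2.44-fold, Cxcl10 2.23-fold and Ccl8 2.22-fold. In aTreg cells 4 of 6 were higher in the library labelled Brg1-reexpressed, namely Ccl8 (19.2-fold, 8.57 to 53.2), Ccl22 (9.15-fold, 4.92 to 18.9), Cxcl9 (8.62-fold, 6.41 to 11.8) and Cxcl13 (3.09-fold, 2.04 to 4.80). Most of these ligands are known as products of myeloid or stromal cells. The macrophage markers Adgre1 and Lyz2 were 2.91-fold and 2.43-fold lower in the rKO1 reexpressed library, as the ligands were. Adgre1 was 2.63-fold higher in the aTreg library labelled Brg1-reexpressed. In the mosaic pair, Lyz2 had a ratio of 0.908 and Adgre1, under 5 CPM, of 0.626, while Ccl1 and Cxcl10 were higher. The sum of all 7 myeloid markers ran against the ligands in the rKO1 pair. It was 312 CPM in Brg1-deleted and 379 CPM in Brg1-reexpressed cells. In the aTreg libraries it was 655 and 998 CPM in that order. No marker was at 0, and the part of these markers in the ligand values was not tested.

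Other chemokine receptors were read beside the 8. Of 11 inflammatory receptors 5 were tested in the mosaic pair, and 4 were higher in Brg1-sufficient cells. Among them were Ccr2 (32.5-fold), which responds to monocyte chemoattractants, Ccr3 (19.5-fold, against 7 reads) and Cxcr6 (6.77-fold). In the rKO1 pair 4 of 6 were higher with reexpression, among them Ccr2 (7.82-fold), Ccr3 (3.24-fold) and Ccr1 (2.23-fold). In aTreg cells 3 of 5 were, by the labels, among them Cxcr6 (4.12-fold) and Ccr2 (3.80-fold). No receptor of this list was called lower in the 3 comparisons. Among 8 receptors for lymphoid and gut homing, all tested, 1 was higher in mosaic Brg1-sufficient cells, the leukotriene receptor Ltb4r1 (17.3-fold), and 1 was lower. In the rKO1 pair Ccr7, the lymph node entry receptor, was 5.08-fold and Ltb4r1 2.03-fold lower with reexpression, and 0 were called in aTreg cells. With the shares of all genes given for the ligands, 0 of 8 does not set these receptors apart. The 5 atypical receptors were under 5 CPM throughout.

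Transcription factors known for Th lineages and homing were called in part. In the mosaic pair 5 of 15 tested were higher and 0 lower in Brg1-sufficient cells, among them Maf (5.95-fold), Prdm1 (5.64-fold), which encodes BLIMP1, and Tbx21 (4.72-fold), the T-bet gene of Th1 cells. In the rKO1 pair 3 of 14 were higher, among them Prdm1 (3.50-fold) and Maf (2.44-fold), and 1 lower, Foxp1 (2.24-fold), a factor of naive T cells. Tbx21 there was 1.59-fold higher, under the threshold, beside the 5.27-fold of Cxcr3. In aTreg cells 0 of 15 were called in either direction, with 4.40% of all genes called higher and 2.03% lower. With shares this low, 0 of 15 does not set these factors apart from all genes.

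**Figure D4:**
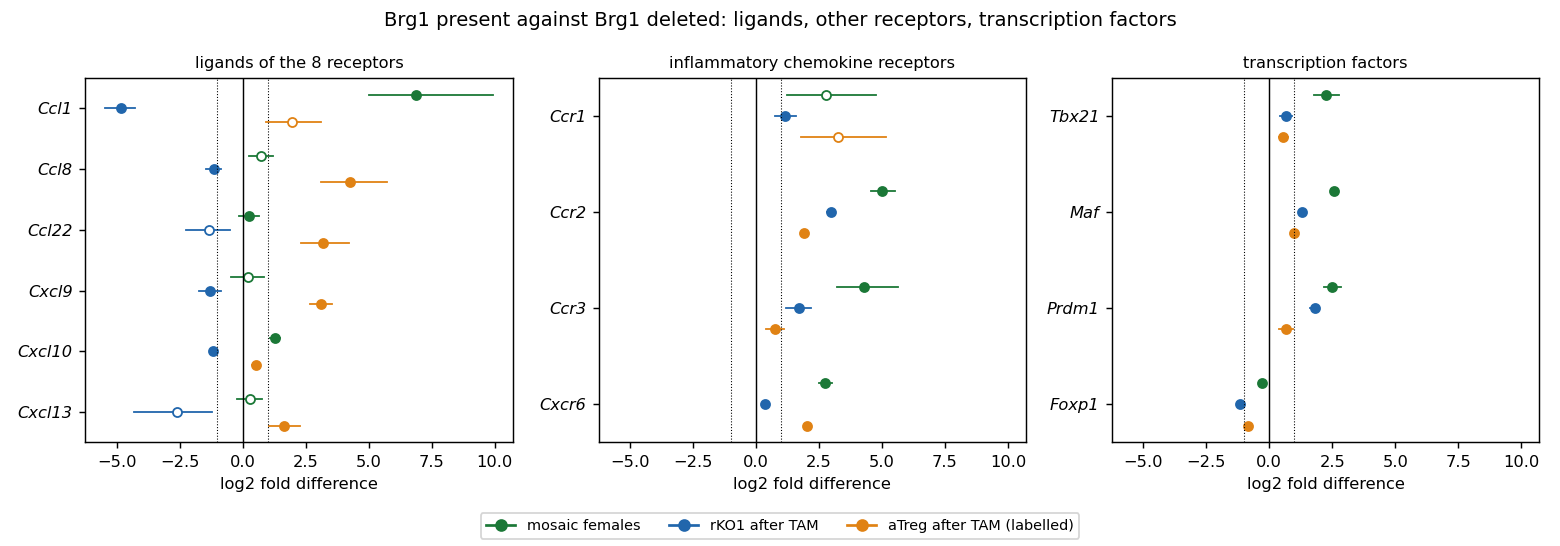
Log2 fold difference (points) with 95% counting intervals (lines) of called ligands, inflammatory chemokine receptors and transcription factors in the 3 Brg1 comparisons, open where both libraries were under 5 CPM and with dotted lines at 2-fold. The ligands lie left of 0 in the rKO1 pair and right of it in the aTreg pair, while the inflammatory receptors lie right of 0 in all 3.

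Signalling genes below the receptors were read in the same comparisons. Of 22 tested genes of chemokine receptor signalling (G proteins, arrestins, RGS proteins and kinases), 1 was higher in the mosaic pair, Rgs16 (2.63-fold), a brake on G protein signalling, and 0 were called in the rKO1 and the aTreg pair, where 4.03% of all genes were called higher in the mosaic, 7.14% in the rKO1 and 4.40% in the aTreg pair. Adhesion molecules and the enzymes that build selectin ligands were another list. In the mosaic pair 5 of 14 were higher in Brg1-sufficient cells, with Itga2 (12.7-fold), Gcnt1 (12.5-fold), Fut7 (7.38-fold) and Chst2 (6.92-fold) leading. Fut7 and Gcnt1 glycosylate the selectin ligands that skin-homing T cells carry beside CCR4 and CCR10. In the rKO1 pair 4 of 16 were higher and 1 lower with reexpression, with Itga2 (10.1-fold), Fut7 (2.81-fold) and Chst2 (2.16-fold) among the first and Madcam1 (6.14-fold lower) the last. In aTreg cells 2 of 14 were higher, Itga2 (2.17-fold) and Fut7 (2.11-fold).

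Genes listed here under follicular regulatory T cells, which use CXCR5, were mixed. In the mosaic pair 3 of 11 were higher in Brg1-sufficient cells, Il1r2 (29.7-fold), Icos (5.51-fold) and Tox2 (4.08-fold), and 1 lower, Id3 (2.32-fold). In the rKO1 pair 2 of 11 were higher with reexpression, with Icos at 3.66-fold, and 4 were lower. Among the lower were Il21 (a ratio of 0.0233, 0.00474 to 0.0694, from 3 against 141 reads), Tcf7 (6.88-fold) and Id3 (4.37-fold). Cxcr5 was under 5 CPM in both libraries of this pair, with a ratio of 0.662 (0.377 to 1.14). In aTreg cells 0 of 11 were called, which does not set them apart, as 4.40% of all genes were called higher and 2.03% lower. The B cell markers summed to between 15.0 and 28.1 CPM in the 3 rKO1 libraries, highest in Brg1-reexpressed cells. They summed to 94.0 and 70.9 CPM in the aTreg libraries labelled Brg1-deleted and Brg1-reexpressed, where Cxcr5 and Ccr6 differed in the same direction. Most of these aTreg sums was Cd79b, at 82.5 and 52.2 CPM, whereas Ms4a1 went the other way, with 23 and 135 reads. Cd79b was higher and Ms4a1, under 5 CPM, was 4.02-fold lower in Brg1-reexpressed than in Brg1-deleted rKO1 cells after TAM (5 against 22 reads). Pax5 was at 0 in both aTreg, the untreated and the Brg1-reexpressed library, and Fcer2a in the Brg1-reexpressed library. Their part in the Cxcr5 and Ccr6 values was not tested. Called among the other marker lists in the rKO1 pair were Cd79b (2.08-fold higher), Ctla4 (2.87-fold higher) and Jchain (2.07-fold lower). In aTreg cells, by the labels, they were Ms4a1 (5.28-fold higher), Jchain (3.67-fold higher) and Cd3e (2.45-fold lower) with reexpression. The NK cell gene Ncr1 had 122 reads in the Brg1-deleted and 0 in the Brg1-reexpressed rKO1 library, at least 37.2-fold lower with a floor of 3 reads per library. It had 104 reads in mosaic Brg1-sufficient and 1 in mosaic Brg1-deleted cells (119-fold, 20.9 to 4757, under 5 CPM in both), and 41 against 8 reads in the aTreg libraries labelled Brg1-reexpressed and Brg1-deleted. Ncr1 thus differed in the same direction as Ccl1 in all 3 pairs, and in the mosaic pair in the same direction as the 7 receptors called there. In the rKO1 pair Ncr1 differed in the opposite direction to the 4 receptors called there, which were higher in Brg1-reexpressed cells. Ncr1 is 1 of 6 CD8 T and NK cell markers, whose sum in the aTreg pair went the other way. The 6 CD8 T and NK cell markers together summed to 35.2 CPM in mosaic Brg1-sufficient and 23.3 CPM in mosaic Brg1-deleted cells, to 25.5 CPM in Brg1-deleted and 14.0 CPM in Brg1-reexpressed rKO1 cells after TAM, and to 27.5 CPM and 25.4 CPM in the aTreg libraries labelled Brg1-deleted and Brg1-reexpressed. Their part in the ligand and receptor values was not tested.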

How the data were processed

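The deposited values are FPKM per gene, 1 file per library. The authors' processing notes name HISAT2 2.0, featureCounts 1.5.0-p3, StringTie 1.3.3b and build mm10, and the annotation release is not given in the sources used here. Whole reads were recovered from each FPKM value, the merged exon length (GENCODE M21, GRCm38) and the value of 1 read in that library. With the annotated length, 24288 of 26057 genes with reads in the total Treg files (93.2%) and 21242 of 21242 in the aTreg files came out whole within 0.01 reads. For the others a length was inferred (1600 genes) or the value kept unrounded (161), and 8 were dropped. The lengths behind the values of Ccr6 and Gpr15 were 2028 and 1290 bases in the total Treg files and 2320 and 1638 in the aTreg files. Because the deposited unit is not counts and each condition has 1 library, no count model was fitted. Libraries were scaled by TMM (trimming 30% of M and 5% of A values), and genes reaching 5 CPM in 1 or both libraries compared were set against a threshold of 2-fold, with a prior of 0.125 reads for log2 values. Intervals are exact Clopper-Pearson or Poisson intervals at 95%. Tools were SciPy 1.17.1, NumPy 2.4.6, matplotlib 3.10.9 and pandas 2.3.3 under Python 3.11.15, and the steps were tested on simulated data. All 8 receptors are named, with up to 4 called genes of each of 13 lists and the 3 genes most like each receptor. Some genes that this rule would name are not reported here. Receptors and lists were chosen with earlier results of these data known. Alternatives were other scalings, no CPM filter and a prior of 1 read.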

Additional observations from a re-analysis of the deposited data

Results flagged for a closer look

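The receptors Ccr6, Ccr10, Cxcr5 and Gpr15 differed in opposite directions between Brg1 comparisons, each beyond counting error, with 1 library per condition, and the difference between the comparisons was itself not tested. Values are log2 fold differences of cells with BRG1 over cells without it. Ccr6 was at 1.45 in the mosaic pair, at -0.64 in the rKO1 pair and, by the labels, at -0.79 in the aTreg pair. Ccr10 was at 5.37 in the mosaic and 2.75 in the rKO1 pair but at -0.73 in the aTreg pair. Gpr15 was at 5.26 and 0.90 in the first pairs, the latter under 5 CPM, and at -0.96 in the aTreg pair. Cxcr5 was at 3.46 in the mosaic and -0.43 in the aTreg pair. In the aTreg pair Smarca4 also went against the labels, so that its directions are those of the labels only.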

How the results depend on the processing

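The 16 counts of called receptors were recomputed under 6 alternative settings. Scaling by total reads alone raised the receptors called higher in untreated rKO1 over WT cells from 1 to 2, by adding Ccr8. Leaving out the CPM filter raised those higher in untreated rKO1 over mosaic Brg1-deleted cells from 2 to 4, by adding Ccr10 and Gpr15. The other counts stayed within 1.5 times. Of 64 log2 differences of single receptors, 18 moved under total reads and 0 under the other scalings or the larger prior, and none changed sign. No paired analysis was possible because each condition has 1 library, and for the same reason no replicate could be left out. Depth limits Ccr10, Cxcr5 and Gpr15 most, with 4 to 49 reads in some Brg1-deleted libraries.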
